A study of Mus musculus with 20 samples.

Results

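Lenses lacking the activator E2F transcription factors were compared with control lenses at E17.5, late in mouse gestation. The members were chosen by their titles: 10 arrays of the 20 in the series, 5 from Cry-Cre E2F1-/- E2F2-/- E2F3f/f embryos (called knockout here) and 5 from E2F2-/- embryos (called control). The controls therefore also lack E2F2, so the contrast is the added loss of E2F1 in the whole animal and of E2F3 wherever the Cry-Cre transgene acted. Neither the cells in which that Cre is active nor the age at which it starts is stated in the labels. Each sample was RNA from both lenses of a mouse, hybridised to an Affymetrix mouse expression array. The series' stated aim was to find what leads up to the collapse of triple-deficient lenses in newborns, and E17.5 is the earlier of its stages. The labels do not say outright that the samples of a group are different animals or litters, so the p-values measure only the spread between these samples, which may be partly technical.

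The lens holds a sheet of dividing epithelial cells over a mass of elongated fibre cells that have left the cell cycle, fill with crystallins and lose their nuclei and organelles. E2F1, E2F2 and E2F3 bind DNA together with DP partners, and pocket proteins of the Rb family hold them inactive until a cell enters S phase. They are best known as activators of DNA replication genes, and the E2F-pocket protein complexes are also known as repressors of the same genes in cells that have left the cycle.

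The labels give the cell type as epithelial, yet the arrays carried the transcripts of whole lens. The mean log2 level of 16 crystallin genes was 13.35 to 13.41 in the control arrays and 13.29 to 13.48 in the knockout arrays. The mean of 31 fibre genes was 10.86 to 11.01 and 10.54 to 11.02, and that of 30 genes of the lens epithelium was 8.41 to 8.77 and 8.55 to 9.06. Fibre and epithelial markers were thus both present on every array.

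The knockout arrays differed among themselves more than the controls did. Each array's distance was measured as the root mean square log2 difference from the mean of the other 4 arrays of its group, over the 11859 genes tested. The control distances were 0.203, 0.175, 0.179, 0.152 and 0.168 for arrays 10, 11, 12, 13 and 15. The knockout distances were 0.371, 0.311, 0.241, 0.324 and 0.486 for arrays 24, 25, 26, 27 and 28. All 5 knockout values lay above all 5 control values. The means were 0.347 ± 0.0906 (SD, n = 5) and 0.175 ± 0.0183 (SD, n = 5), a ratio of 1.98. The two-sided exact permutation p was 0.00794, the smallest that 5 against 5 arrays allow. The distances of a group are not independent, because each uses the other 4 arrays and 1 outlying array raises them all. The p takes no account of this. Array 27 lay 0.213 from the control mean, where single controls lay 0.152 to 0.203 from the mean of the others. Gene by gene, the SD was larger among the knockout arrays for 10389 genes (87.6%), and its median was 0.204 against 0.0963. An SD over 0.5 was found for 985 genes among the knockout arrays and for 98 among the controls.

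On the first 2 principal components knockout arrays 24 and 27 lay among the controls, and arrays 25, 26 and 28 lay away from them. The first principal component, which carried 47.8% of the variance, placed the controls between -15.7 and -3.6, array 24 at -13.3 and array 27 at -12.6. It placed arrays 25 and 28 at 22.6 and 43.3, and array 26 between the controls and array 25. The second component, with 19.9%, set arrays 25 and 26 (23.5 and 18.1) apart from array 28 (-24.4). The third, with 12.8%, placed every knockout above every control (-13.0 to -3.5). Array 25 was the lowest knockout there (-1.4), array 27 lay at 7.7 and array 24 was the highest. Array 27 correlated better with the controls (mean r = 0.99 across genes) than with the other knockouts (0.972), and so did array 24 (0.985 and 0.969). The closest knockout pair was 25 and 26 (r = 0.993) and the most distant was 24 and 28 (r = 0.946). Counting genes at least 2-fold away from the control mean gave 79 for array 24, 382 for array 25, 277 for array 26, 31 for array 27 and 794 for array 28. Single control arrays had 12 to 25 such genes. The labels give no feature that separates arrays 24 and 27 from the other knockouts.

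**Figure D1:**
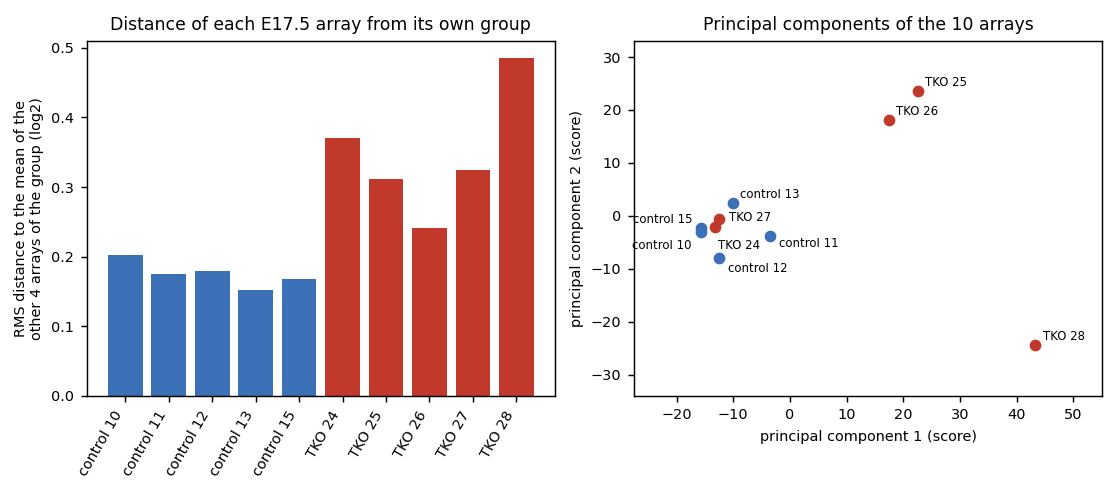
Left, the distance of each E17.5 array from the mean of the other 4 arrays of its group (bars, log2 units); right, the scores of the 10 arrays on the first 2 principal components. Blue marks control and red knockout arrays; every red bar is taller than every blue bar, and on these components knockouts 24 and 27 sit among the controls.

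Transcripts of tissues next to the lens varied with the same arrays. The mean log2 level of 24 retina markers, such as Six6, Atoh7 and Fgf15, was 5.95, 8.17, 7.76, 6.34 and 7.1 in knockouts 24 to 28, against 5.87 to 6.84 in the controls. Knockouts 25 and 26 were the highest of the 10 arrays and knockout 24 lay within the control range. Pigment cell markers were also highest in knockouts 25 (7.6), 28 (7.55) and 26 (7.28), with controls at 6.4 to 6.84. Endothelial and pericyte markers reached 8.55 in knockout 28, and macrophage markers 7.99 there. None of the retina, pigment, macrophage, endothelial, red blood cell, cornea or muscle markers passed the test between the groups. The groups' mean retina level differed by 0.632 (exact permutation p = 0.238, 0.524 after Benjamini-Hochberg adjustment over 11 array measures). A fit with the mean retina level as a covariate is given below as an alternative. The part these cells play in the results was not otherwise tested, and that fit does not settle it. Fewer cells of a type and less RNA per cell cannot be told apart in such samples. Measures of RNA quality are given beside these. None passed after adjustment, but with 5 against 5 arrays and 11 measures a single measure could not pass even when fully separated. The 5′ minus 3′ difference of the Gapdh control probe sets was 0.163 ± 0.039 (SD, n = 5) in knockouts and -0.036 ± 0.015 (SD, n = 5) in controls. The groups did not overlap (exact permutation p = 0.00794, the smallest possible, adjusted 0.0582). The level of the 18S probe set was 9.71 ± 0.507 and 9.01 ± 0.27 (SD, n = 5 each; p = 0.0159 by the exact test, adjusted 0.0582).

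Between the groups, 343 genes passed limma's test with a Benjamini-Hochberg adjusted p below 0.05. They are 2.89% of the 11859 tested: 188 higher in the knockout (1.59%) and 155 lower (1.31%). At an unadjusted p below 0.05 there were 3041 genes. The changes were small, with a median size of 0.45 on the log2 scale among the called genes, and 13 rose and 6 fell at least 2-fold. Over all genes the median change was -0.03. The balance between rises and falls turned on the scaling: quantile normalisation gave 203 higher and 346 lower, and centring each array on its median gave 149 higher and 48 lower.

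The count of called genes rested on single arrays. Without control 10, 11, 12, 13 or 15 it was 96, 63, 71, 58 and 49. Leaving out knockout 24, 25, 26, 27 or 28 gave 231, 113, 67, 1129 and 724. The count was thus highest without array 27, the knockout nearest the controls. It was also the knockout nearest the control level for 78 of the 188 higher genes and for 89 of the 155 lower ones. The called genes did move in each knockout array, with a median deviation from the control mean of 0.49, 0.53, 0.55, 0.37 and 0.57 in knockouts 24 to 28 for the higher genes and of -0.37, -0.42, -0.42, -0.27 and -0.5 for the lower ones. These deviations describe genes picked for the difference and carry no test.

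**Figure D2:**
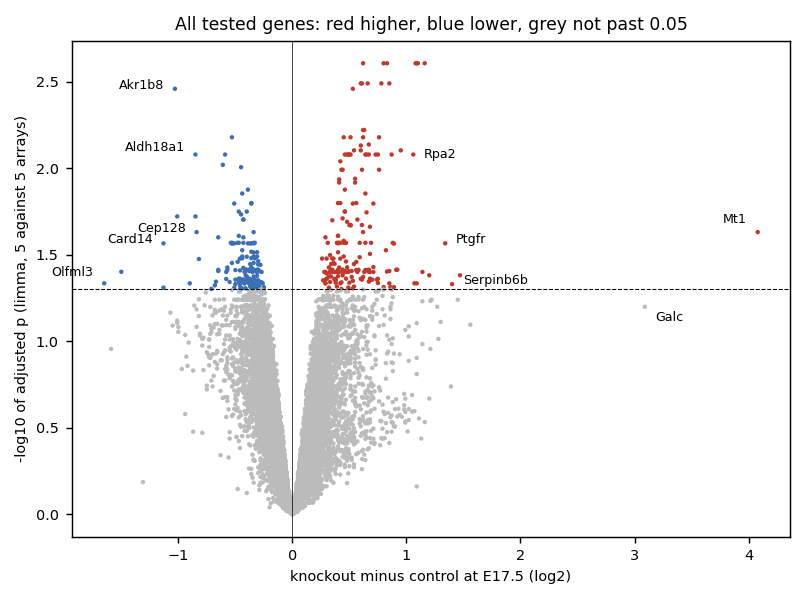
Each point is one of 11859 genes, plotted by the knockout minus control difference at E17.5 (log2) and by -log10 of limma's adjusted p. The dashed line marks 0.05; Mt1 lies far to the right of all other called genes, and Galc has a large mean difference without passing.

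Mt1, a metallothionein that binds zinc and copper, had the largest rise. Its log2 values were 5.58 to 6.02 in the controls and 10.91, 10.52, 10.8, 6.45 and 10.43 in knockouts 24 to 28. Thus 4 arrays, 24 among them, were far above the controls, and array 27 exceeded the highest control by little. The difference was 4.08 ± 0.73 (SE), a 17-fold rise (limma adjusted p = 0.0234). Another Mt1 probe set gave 1.01, with knockout 27 at 5.6, just under the control range of 5.64 to 5.89. Mt2, its neighbour on chromosome 8, read 5.84, 6.0, 6.51, 5.93 and 7.38 in the knockouts and 5.89 to 6.25 in the controls, and did not pass (0.30 ± 0.26, adjusted p = 0.481). The Mt1 call was lost, at adjusted p of 0.0551 to 0.0718, without any one control array or without knockout 25 or 26, while its size stayed at 3.84 to 4.16. Of the 23 tested genes for metallothioneins and metal transport, Mt1 alone passed, and the list's median was 0.02.

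The start regions of both metallothionein genes are shown because they share a metal response element and sit side by side while only Mt1 passed. Windows run from 250 bases before to 50 bases after the RefSeq start on GRCm38.p6; capitals mark TGCACNC or TGCGCNC on either strand.
Mt1, chr8:94178839-94179138, + strand: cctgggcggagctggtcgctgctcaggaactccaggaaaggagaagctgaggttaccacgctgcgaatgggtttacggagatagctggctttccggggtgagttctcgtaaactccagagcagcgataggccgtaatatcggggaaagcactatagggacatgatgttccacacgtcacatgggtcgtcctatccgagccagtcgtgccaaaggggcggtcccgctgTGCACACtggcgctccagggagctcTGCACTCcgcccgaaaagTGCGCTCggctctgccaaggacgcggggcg
Mt2, chr8:94172368-94172667, + strand: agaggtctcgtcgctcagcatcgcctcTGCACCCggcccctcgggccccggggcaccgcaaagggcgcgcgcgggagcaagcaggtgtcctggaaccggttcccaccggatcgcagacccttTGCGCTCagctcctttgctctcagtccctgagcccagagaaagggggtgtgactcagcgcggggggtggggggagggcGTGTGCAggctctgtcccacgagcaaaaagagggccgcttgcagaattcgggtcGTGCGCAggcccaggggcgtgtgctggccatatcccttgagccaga
The Mt1 window held 3 matches and the Mt2 window 4. Such matches were common: 37.0% of the 9603 tested genes with a RefSeq window held at least 1, as did 38.1% of the 147 called higher and 32.5% of the 123 called lower. A match is a description of letters, not of a bound site.

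Other large rises came from genes with unrelated roles, and several were uneven across the knockouts. Serpinb6b, a serine protease inhibitor of the clade B serpins, read 6.62, 7.39, 7.27, 6.01 and 8.09 in knockouts 24 to 28 against 5.2 to 5.95 in the controls. Ptgfr, the receptor for prostaglandin F2α, read 9.35, 9.13, 9.44, 8.3 and 9.89 against 7.59 to 8.25. For both genes knockout 27 lay just above the highest control and knockout 28 was the highest. Their differences were 1.40 ± 0.33 and 1.34 ± 0.25 (SE; limma adjusted p = 0.0468 and 0.0272). Phlda3, a p53 target that restrains Akt, overlapped the controls in knockout 27 (6.55; controls 6.29 to 6.62) and lay between 7.59 and 8.2 in the other knockouts, with a difference of 1.2 ± 0.26 (adjusted p = 0.0416). Phlda3 was the only called member of 32 tested p53 targets, whose median was 0.17.

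Other rises were even. Hsp90b1, the HSP90 chaperone of the endoplasmic reticulum, read 10.82, 10.91, 11.04, 10.91 and 10.7 in the knockouts and 9.99 to 10.19 in the controls, a difference of 0.80 ± 0.08 (SE; limma adjusted p = 0.00247). Slc38a4, an imprinted amino acid transporter, read 8.42, 8.34, 8.35, 8.01 and 8.33 against 7.24 to 7.61 (0.85 ± 0.10, adjusted p = 0.00323). Array 27 stood with the other knockouts for Hsp90b1 and lay lowest, still clear of the controls, for Slc38a4. The size depended on the probe set: the next gave 0.11 for Hsp90b1 and 0.27 for Slc38a4. The mean of each gene's probe sets gave 0.45 and 0.56, both still called (adjusted p = 0.00789 and 0.0302).

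Across the called genes, 178 had another probe set that passed the filter on low values. Its difference had the same sign for 148 of them and was at least 0.5 times that of the probe set used for 66 (37.1%), while it lay within 0.1 of zero for 48. Serinc3, a serine incorporator of membranes, illustrates the point: the probe set used rose by 1.10, and its 5 others gave -0.04 to 0.07. With the mean of all probe sets of a gene, dim ones included, 323 of the called genes were tested and 189 kept their call and direction. Where probe sets of a gene disagree, the change holds for the probed stretch of transcript only.

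**Figure D3:**
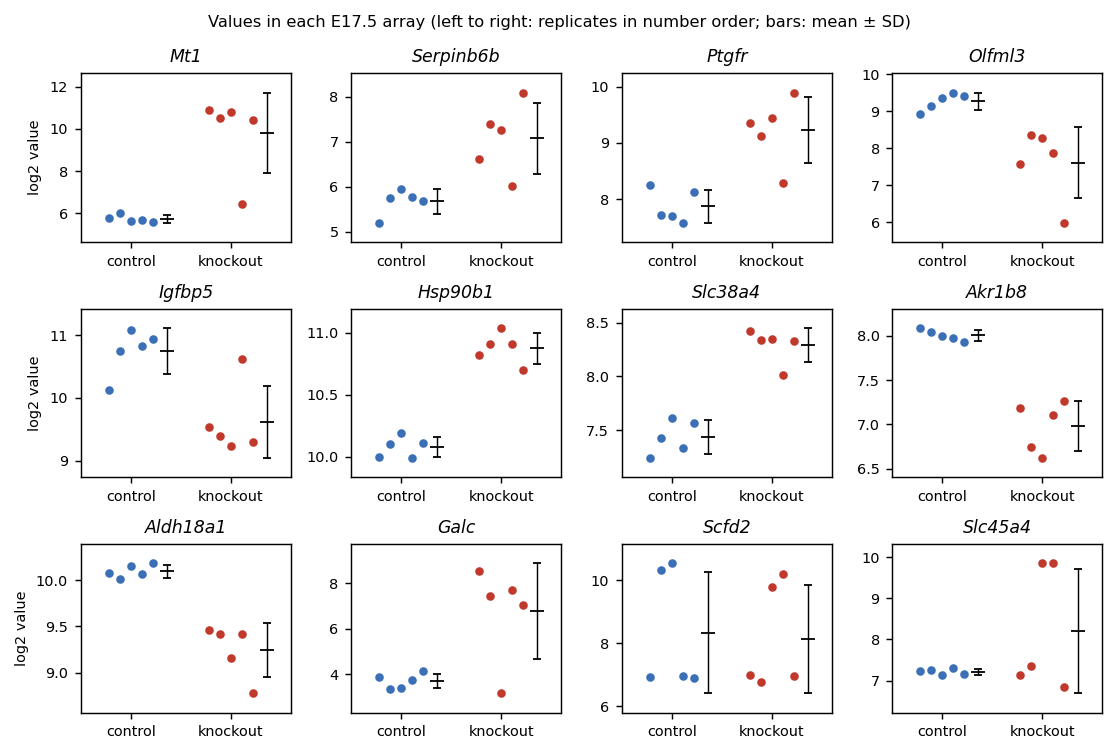
Log2 values of 12 genes in each E17.5 array (points, replicates in number order) with the group mean ± SD (bars). Mt1, Serpinb6b and Ptgfr are high in 4 knockouts with array 27 near the controls; Hsp90b1, Akr1b8 and Aldh18a1 separate the groups evenly; Galc, Scfd2 and Slc45a4 fall at 2 levels.

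Olfml3, a secreted olfactomedin-like protein of the extracellular matrix, had the largest fall. It read 8.92 to 9.49 in the controls and 7.58, 8.37, 8.27, 7.87 and 5.99 in knockouts 24 to 28, a difference of -1.65 ± 0.38 (SE; limma adjusted p = 0.0463). All knockouts lay below all controls, and knockout 28 lay far below the rest. Igfbp5, which binds insulin-like growth factors, read 10.13 to 11.08 in the controls and 9.53, 9.4, 9.24, 10.62 and 9.29 in the knockouts (-1.13 ± 0.26, adjusted p = 0.0490), and array 27 lay inside the control range. The mean of its probe sets gave -0.66 (adjusted p = 0.0999). Card14, a scaffold that activates NF-κB, read 5.51 to 6.69 in the controls and 4.58, 5.03, 5.21, 5.35 and 5.25 in the knockouts (-1.13 ± 0.21, adjusted p = 0.0272). For these 3 genes the call was lost in most fits that left out 1 array, at adjusted p up to 0.117, while the size stayed between -1.84 and -1.01.

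Akr1b8, an aldo-keto reductase that reduces aldehydes, and Aldh18a1, the enzyme that starts proline synthesis from glutamate, fell in every array. Akr1b8 read 7.18, 6.74, 6.62, 7.11 and 7.26 in the knockouts and 7.93 to 8.09 in the controls (-1.03 ± 0.12, SE; limma adjusted p = 0.00347). Aldh18a1 read 9.46, 9.42, 9.16, 9.42 and 8.78 against 10.01 to 10.18 (-0.85 ± 0.12, adjusted p = 0.00833). Both were the only called members of 19 aldo-keto reductases and aldehyde dehydrogenases tested (10.5%, against 2.89% of all genes), a list with a median of -0.10.

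In all, 25 genes, 20 higher and 5 lower, were called under every one of the 22 alternative fits. Besides Akr1b8, Aldh18a1, Hsp90b1 and Slc38a4 they included, named here after their values were seen, Rpa2, Nasp, Ceacam2, Rsrp1, Mrpl50, Sec23b, Sec61a2, Dnm1l, Pds5a and Emb among the rises and Vat1, Phtf1 and Dtd1 among the falls. Sec23b coats vesicles that leave the endoplasmic reticulum and Sec61a2 belongs to its protein channel. Sec23b read 9.95, 9.98, 9.93, 9.71 and 10.02 in the knockouts and 9.01 to 9.4 in the controls. Dnm1l divides mitochondria and Pds5a regulates cohesin. The median size of the 25 changes was 0.75.

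The targeted genes were read on the array as follows. E2f1 was higher in the knockout: 7.94, 7.74, 7.86, 7.95 and 7.55 against 7.15 to 7.24, a difference of 0.60 ± 0.08 (SE; limma adjusted p = 0.00788). Its next probe set gave 0.62, the dimmest -0.29 and the mean of all 0.31 (adjusted p = 0.0535). E2f2, deleted in both groups, differed by -0.09 ± 0.07 (adjusted p = 0.408) and E2f3 by -0.07 ± 0.10 (adjusted p = 0.681). The labels do not say which parts of the genes were deleted or whether these probe sets lie there, so the values do not check the genotypes. Tfdp1, the DP partner of the E2Fs, rose by 0.40 ± 0.07 (adjusted p = 0.0246). E2f1 and Tfdp1 were the only called members of 13 E2F and pocket protein genes (15.4%, against 2.89% of all genes), whose median was -0.07.

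The calls were also counted along the chromosomes around the targeted genes. Among the 100 tested genes on each side of E2f1, 15 of 200 were called (7.5%), 11 of them higher, Sec23b, Crnkl1, Gins1 and Serinc3 included. Around E2f2 the count was 13 of 200 (6.5%), with Rpa2, Rsrp1, Srsf10 and Cdc42, and around E2f3 it was 7 of 172 (4.07%), with Serpinb6b, Gmnn and Tubb2a. Over all genes 2.89% were called. Over the whole chromosomes that carry E2f1, E2f2 and E2f3 the shares were 4.39%, 3.89% and 3.15%. E2f2 was deleted in both groups. What sets these shares was not tested. The gene order is that of RefSeq's GRCm38.p6 table, which placed 99.8% of the tested genes.

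The median of the 46 tested DNA replication genes was 0.43, against -0.03 over all genes. In this list 8 rose (17.4%, against 1.59% of all genes) and none fell. They were led by Rpa2 (1.06), a subunit of the single-strand binding complex, Gins1 (0.85) of the replicative helicase and Gmnn (0.75), the inhibitor of licensing. The others were Pcna (0.68), the sliding clamp, Cdc7 (0.67), Tipin (0.64), Rfc4 (0.60) and Orc6 (0.47). Rpa2, Gins1 and Gmnn lie in the stretches counted around E2f2, E2f1 and E2f3, and the others do not. By array the list's median deviation was 0.22, 0.82, 0.54, 0.01 and 0.51 in knockouts 24 to 28, so array 27 stood at the control level and 25 was highest. The 45 mitosis genes had 8 rises (17.8%) and no fall (median 0.30). Among the rises were Pttg1, the securin (1.47), Cenpw (1.14) of the centromere, the kinase Aurka (0.83) and the checkpoint protein Mad2l1 (0.82). Pttg1 overlapped the controls, of which number 12 read 10.29 and the others 8.52 to 8.88. Without any one control, or without knockout 25 or 26, the replication list kept a single call (1), and without knockout 27 it had 24. The mitosis list had 0 to 2 calls without one of the same arrays, 4 without knockout 24 and 13 without knockout 27. Knockouts 25 and 26, highest for both lists, were also highest for the retina markers. With the mean retina level as a covariate the replication list had 2 calls and the mitosis list 0, for reasons not tested. The Pcna difference was then 0.52 (adjusted p = 0.0904) and that of Rpa2 0.92 (adjusted p = 0.0179). The mean of its probe sets gave 0.26 for Gins1 (adjusted p = 0.0919).

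**Figure D4:**
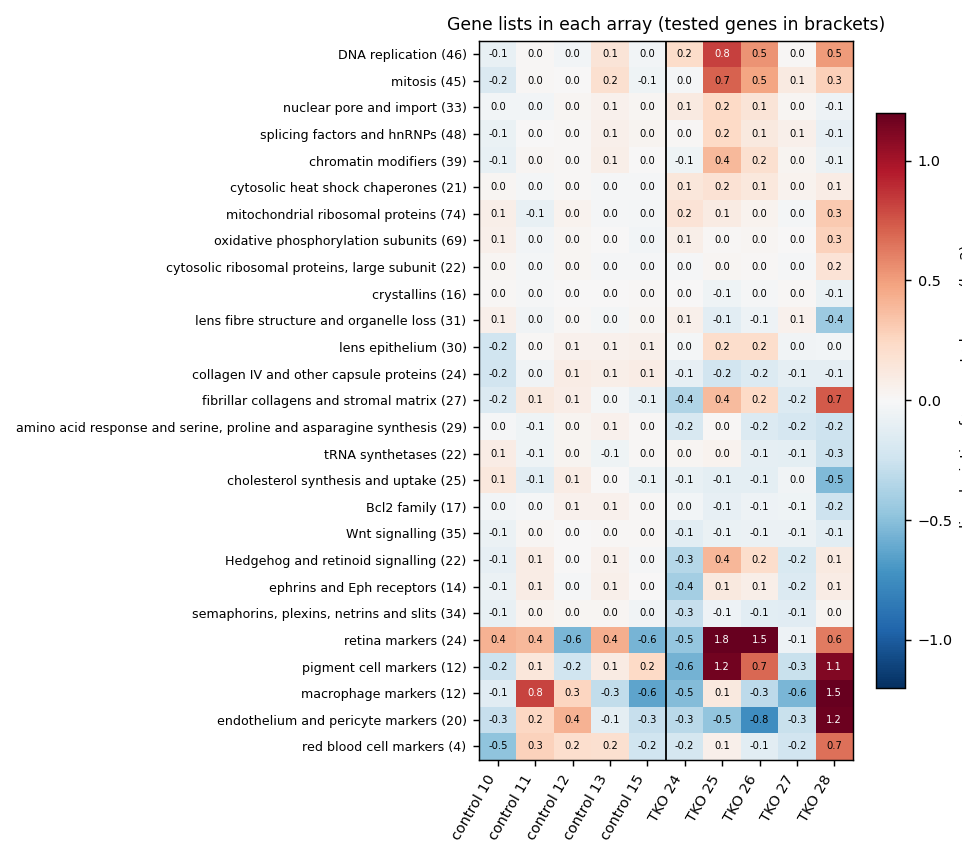
Median deviation from the control mean (log2, colour and printed values; colour scale limited to 1.2 either way) of 27 gene lists in each of the 10 arrays, controls left of the line. The retina, pigment, macrophage and endothelial lists vary most between knockout arrays, and the crystallin and ribosomal protein lists least.

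The E2F motif was looked for in the same start windows, as TTTCCCGC, TTTGGCGC, TTTCGCGC or TTTGCCGC on either strand. It was present in 4.15% of the 9603 genes, in 9 of the 147 called higher (6.12%) and in 3 of the 123 called lower (2.44%). Of 37 replication genes with a window, 14 (37.8%) held it, but none of the 12 called replication and mitosis genes with a window did. The 9 called higher with a match were Gucy1b1, Hells, Ipo7, Pds5a, Ranbp1, Rsl1d1, Srsf10, Tex30 and Tfdp1. Tfdp1 and Srsf10 are shown, the former as the partner of the E2Fs and the latter as the called gene with 3 matches, marked in capitals.
Tfdp1, chr8:13338501-13338800, + strand: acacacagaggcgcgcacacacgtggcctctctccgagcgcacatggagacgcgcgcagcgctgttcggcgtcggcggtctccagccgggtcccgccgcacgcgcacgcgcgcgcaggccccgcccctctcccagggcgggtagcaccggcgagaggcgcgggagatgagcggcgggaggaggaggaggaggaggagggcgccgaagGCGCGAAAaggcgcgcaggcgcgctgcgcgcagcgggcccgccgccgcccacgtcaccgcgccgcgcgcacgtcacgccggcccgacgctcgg
Srsf10, chr4:135855821-135856120, + strand: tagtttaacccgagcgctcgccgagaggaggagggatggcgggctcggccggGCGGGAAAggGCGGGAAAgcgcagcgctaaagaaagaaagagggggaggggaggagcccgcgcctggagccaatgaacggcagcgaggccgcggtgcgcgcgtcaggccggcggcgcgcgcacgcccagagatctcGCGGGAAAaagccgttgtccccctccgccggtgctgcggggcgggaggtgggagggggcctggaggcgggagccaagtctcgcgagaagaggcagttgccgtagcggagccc
Absence of these letters from a window says nothing of sites elsewhere.

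Few chromatin and nuclear transport genes passed. Hells, a remodeller needed for DNA methylation, rose by 0.85 and Nasp, a histone chaperone, by 0.76 among 39 chromatin genes (5.13% called, median 0.08; over all genes 1.59% rose). Nasp read 9.85, 10.07, 9.85, 9.42 and 10.03 in the knockouts and 9.0 to 9.2 in the controls. Among 33 nuclear pore and import genes Ranbp1 (0.36) and Ipo7 (0.32) rose (6.06%, median 0.08). The calls of Hells and Ipo7 were lost with the mean of their probe sets (0.40 and 0.26, adjusted p = 0.0737 and 0.116). No member of 12 variant and linker histones passed (median -0.13).

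Few splicing factors passed (8.33%, against 2.89% of all genes). Of 48, Srsf10 (0.67), Srsf5 (0.40) and Srsf11 (0.30), SR proteins that guide splice site choice, rose and Sf3a2 of the U2 particle fell (-0.36); the median was 0.07. Srsf10 read 9.42, 9.31, 9.12, 9.19 and 8.86 in the knockouts and 8.46 to 8.56 in the controls. Its other probe set gave 0.23, and that of Srsf11 -0.04. The mean of probe sets gave 0.20 for both, with adjusted p of 0.154 and 0.2.

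Protein production and energy genes hardly passed, where 2.89% of all genes were called. None of 22 large and 21 small cytosolic ribosomal proteins (medians 0.03 and 0.03), 35 ribosome biogenesis genes (0.04), 69 oxidative phosphorylation subunits (0.07), 19 glycolysis genes (-0.08), 21 hypoxia genes (-0.10) or 9 pentose phosphate genes (-0.09) was called. Mrpl50, a protein of the mitochondrial ribosome, rose by 0.62 and was the only call among 74 such proteins, 54 of which had a positive difference (median 0.10). Its next probe set gave 0.09. Psmd7 (0.39) was the only call among 40 proteasome subunits (median 0.07); the mean of its probe sets gave 0.12 (adjusted p = 0.324).

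Few chaperone genes passed, and most of these calls turned on the probe set. Hsp90aa1, the inducible cytosolic HSP90, read 12.3, 12.27, 12.14, 12.19 and 12.31 in the knockouts and 11.73 to 11.84 in the controls (0.45 ± 0.06, SE; limma adjusted p = 0.00662). Its other bright probe sets gave 0.26 and 0.05, and the mean of all gave 0.16 (adjusted p = 0.141). Dnajb1, an HSP40 protein of the stress response, rose by 0.57 but gave 0.16 with the probe set highest in the 10 arrays. Hsp90aa1 and Dnajb1 were the only calls among 21 cytosolic heat shock genes (9.52%, median 0.10), against 2.89% of all genes. The list had 0 calls when probe sets were averaged, and none of 14 chaperonin and prefoldin genes passed (0.06). Among 31 genes of the endoplasmic reticulum Hsp90b1 rose and Derl1, which helps export misfolded proteins, fell by 0.31 (median -0.03). Another Derl1 probe set gave 0.34 and the mean of all 0.00 (adjusted p = 0.976).

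Few amino acid genes passed. Besides Aldh18a1, Slc1a4, a neutral amino acid transporter, fell by 0.50 among 29 genes of the amino acid response and of serine, proline and asparagine synthesis (6.9% called, median -0.14), and Mars1 fell by 0.44 among 22 tRNA synthetases (4.55%, median -0.10). Slc1a4 was -0.33 with the mean of its probe sets (adjusted p = 0.149). Among 30 amino acid, glucose and monocarboxylate transporters Slc38a4 rose and Slc1a4 fell (6.67%, median -0.04; 2.89% of all genes were called). None of 25 cholesterol genes passed; their median was -0.19, and their median deviation was -0.53 in knockout 28 and -0.12 to -0.04 in the others. Acss2, which makes acetyl-CoA from acetate, rose by 0.52 among 29 fatty acid and phospholipid genes (median -0.06), but the mean of its probe sets gave -0.04.

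Of the glutathione and antioxidant genes 6.25% were called, and of the glutathione S-transferases 5.88%, against 2.89% of all genes. Hmox1, haem oxygenase, rose by 0.61 ± 0.14 (SE; limma adjusted p = 0.0441), with knockouts at 12.11, 11.54, 11.63, 11.43 and 11.93 and controls at 10.89 to 11.39. Txnrd2, the mitochondrial thioredoxin reductase, fell by 0.36 among 32 glutathione and antioxidant genes (median -0.01), but its next probe set gave -0.01 and the mean -0.20 (adjusted p = 0.0984). Gstm3 fell by 0.34 among 17 glutathione S-transferases (median 0.03).

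Few lens differentiation genes passed. None of the 16 crystallins was called, and 15 of them lay between -0.15 and 0.04. Crybb2 was the exception in spread: 13.02, 10.24, 11.84, 11.22 and 12.65 in the knockouts against 10.61 to 11.28 in the controls (0.81 ± 0.44, adjusted p = 0.264). Of 31 fibre genes Hmox1, Prox1 (0.46), a homeodomain factor of fibre cells, and Caprin2 (0.40), an RNA-binding protein of the lens, rose (9.68%, median -0.10). Over all genes 1.59% rose. Prox1 was 0.04 with the mean of its probe sets. Prox1 was also the only call among 26 lens transcription factors (median -0.10). None of 30 epithelial genes passed, although single members lay far apart, such as Pdgfra (-0.92) and Cldn1 (0.98).

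The shares called were 4.17% of capsule genes, 3.7% of stromal matrix genes, 7.69% of integrins and 8.33% of connexins and aquaporins. Each rests on 1 call, and 2.89% of all genes were called. Hspg2, perlecan of the lens capsule, fell by 0.50 among 24 capsule genes (median -0.16), and Olfml3 was the only call among 27 stromal matrix genes (median 0.16, with deviations from -0.36 in knockout 24 to 0.74 in knockout 28). Itgb1, the integrin subunit that pairs with most laminin and collagen receptors, rose by 0.44 among 13 integrins (median -0.16); its next probe set gave 0.46 and the mean of all, dim ones included, 0.15 (adjusted p = 0.197). Aqp4, a water channel, rose by 0.95 among 12 connexins and aquaporins (median 0.03), with knockouts at 5.66, 6.1, 6.14, 5.96 and 6.3 and controls at 4.79 to 5.37. The probe set highest in the 10 arrays gave 0.06 for Aqp4. Serinc3 and Serinc1 (0.34) rose and Tspan5 fell (-0.57) among 21 serine incorporators and tetraspanins (14.3% called, median 0.04). The next probe set gave 0.07 for Tspan5, and the mean of probe sets -0.25 (adjusted p = 0.258) and, for Serinc3, 0.21 (adjusted p = 0.178). None of 24 cadherins, claudins and junction genes (-0.08) or 25 ion pumps (0.03) passed.

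Cytoskeleton genes were called at shares near the 2.89% of all genes: 3.23% of tubulins and kinesins and 2.86% of actins, tropomyosins and spectrins. Tubb2a, a beta tubulin, fell by 0.67 among 31 tubulins and kinesins (median -0.01), with knockouts at 10.85, 10.43, 10.79, 11.43 and 10.84 and controls at 11.43 to 11.7. Tpm1, a tropomyosin, rose by 0.47 among 35 actins, tropomyosins and spectrins (median -0.06); the mean of its probe sets gave 0.18 (adjusted p = 0.18). None of 18 keratins and other intermediate filament genes passed (-0.04).

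Of 17 Bcl2 family genes 17.6% were called, and of 26 caspases, inhibitors and death receptors 7.69%, against 2.89% of all genes. Bmf, a BH3-only protein that promotes apoptosis, fell: 5.95, 5.38, 5.39, 6.28 and 5.72 in the knockouts against 6.4 to 6.87 in the controls (-1.01 ± 0.17, SE; limma adjusted p = 0.0190). Its other probe sets gave -0.15 and -0.14. Bak1, which permeabilises mitochondria, fell by 0.43, and Bnip2 rose by 0.56, among 17 Bcl2 family genes (median -0.10). With the mean of its probe sets Bnip2 was 0.09 (adjusted p = 0.411). Cycs, cytochrome c, rose by 0.47 and Card14 fell among 26 caspases, inhibitors and death receptors (median 0.07). The other bright probe sets of Cycs gave 0.18 and 0.12, and the mean of all 0.12 (adjusted p = 0.369).

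Signalling genes that passed in the lists for growth factor, BMP, Wnt, Notch, Hedgehog, ephrin and semaphorin pathways all fell, with 1 call a list. Porcn, which lipidates Wnt ligands, fell by 0.43 among 35 Wnt genes (median -0.08). Sufu, the brake on Gli factors, fell by 0.57 among 22 Hedgehog and retinoid genes (median 0.08). Bmp1, a procollagen protease, fell by 0.36 among 38 TGF-beta and BMP genes (median -0.01). Psen2 of the gamma secretase fell by 0.35 among 27 Notch genes (median 0.01), Efnb1 by 0.36 among 14 ephrins and Eph receptors (-0.05) and Sema5b by 0.47 among 34 semaphorins and other guidance genes (-0.10). With the mean of probe sets Bmp1 (-0.13), Efnb1 (-0.17), Sufu (-0.25), Sema5b (-0.32) and Psen2 (-0.23) were not called, at adjusted p of 0.0536 to 0.241, and the next probe set of Bmp1 gave 0.11. Igfbp5 was the call among 27 receptor tyrosine kinases and other growth factors (-0.08). With each array centred on its median, Igfbp5, Bmp1, Psen2, Sufu and Efnb1 were not called (limma adjusted p = 0.0587 to 0.0723). Porcn and Sema5b kept their calls there (adjusted p = 0.0414 and 0.0491). With 1 member called in lists of 14 to 38, these shares (2.63% to 7.14%) lie near the 2.89% of all genes. Wnt3a, a ligand outside that list, also fell (-0.36) and is named here after its value was seen. None of 26 FGF and ERK genes (0.02), 26 immediate early genes (-0.07), 13 Myc network genes (-0.12) or 21 interferon genes (-0.06) passed.

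The remaining lists held at most 1 call each. Their shares thus rest on 1 gene at most, up to 12.5% of the serpins, where 2.89% of all genes were called. Cxcl12, a chemokine, fell by 0.45 among 18 NF-kB and chemokine genes (median -0.10), Anxa6, a membrane-binding annexin, by 0.44 among 16 annexins and S100 proteins (0.08; -0.20 with the mean of its probe sets, adjusted p = 0.181), and the forkhead factor Foxo1 by 0.42 among 33 developmental factors (-0.06). Ptgfr was the call among 18 prostaglandin genes (-0.15), Serpinb6b among 8 serpins (-0.07) and Slc38a4 among 17 imprinted genes (0.12). None of 41 lysosome and autophagy genes (0.04) or 4 carbonic anhydrases (0.03) passed.

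Families were also read from gene symbols, without a list. Symbols sharing a stem with at least 10 tested members formed 143 families with 3632 genes, and 87 families held no call. The highest share was 11.4% of 35 genes with the stem Ube, against 2.89% of all genes. In this family Ube2b (0.44), Ube2s (0.50) and Ube2w (0.51) rose and Ube2d-ps (-0.41) fell. Next came the sorting nexins, which shape endosomes, with 3 of 29 (10.3%): Snx5 (0.57), Snx6 (0.61) and Snx12 (0.29) rose with the probe set used. Their next probe sets gave -0.59, 0.17 and -0.16, and those of Ube2b and Ube2w gave 0.22 and 0.0. Both families were picked as the highest of 143 by share, so these shares carry no test. Of the called genes 272 belonged to none of the lists.

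Some genes with the largest spread among knockouts sat at 2 separate levels rather than along a range. Galc, a lysosomal galactosylceramidase, read 8.53, 7.47, 3.16, 7.73 and 7.06 in knockouts 24 to 28 and 3.35 to 4.12 in the controls (3.09 ± 0.81, SE; limma adjusted p = 0.0633). The controls and knockout 26 lay below the array medians of 5.05 to 5.25, so Galc passed the filter on low values through other arrays. Without knockout 26, the array that lacked the rise, it passed (4.0, limma adjusted p = 0.000596). That choice of array decides this pass, so it lends no support. Its other probe sets gave -0.17 and -0.08. Slc45a4 read 9.85 in knockouts 26 and 27 and 6.84 to 7.36 in all other arrays. Scfd2 was split in both groups, at 10.32 and 10.54 in controls 11 and 12, at 9.78 and 10.2 in knockouts 26 and 27, and at 6.77 to 6.99 elsewhere. Fn3krp read 6.41 and 7.02 in knockouts 25 and 27 and 2.91 to 3.64 elsewhere. Slc45a4 and Scfd2 were thus high in the same knockouts, 26 and 27.

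The newborn arrays (P0), 5 knockout and 5 control, share no sample with E17.5 and were fitted on their own. Of the 188 genes higher at E17.5, 133 (70.7%) were called higher and none lower at P0, where 20.2% of all genes were called higher. Of the 155 lower genes, 100 (64.5%) were called lower and none higher, against 19.4% of all genes. As a share of the P0 calls these are 5.54% of the higher and 4.35% of the lower genes. Mt1 differed by 4.56 ± 0.45 at P0 (adjusted p = 0.000114), Olfml3 by -1.77 ± 0.43 (0.00818) and Igfbp5 by -1.41 ± 0.16 (0.000231). Slc38a4 (0.32, limma adjusted p = 0.228), Akr1b8 (-0.56, 0.0869) and 6820431F20Rik (0.45, 0.146), called in every fit at E17.5, did not pass at P0. Of the other genes called in every fit, Pds5a (0.04), Acp6 (0.01) and Thoc2l (0.12) differed less still at P0. Rpa2 (1.05) and Nasp (0.91) differed more. A change between the stages was not tested.

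**Figure D5:**
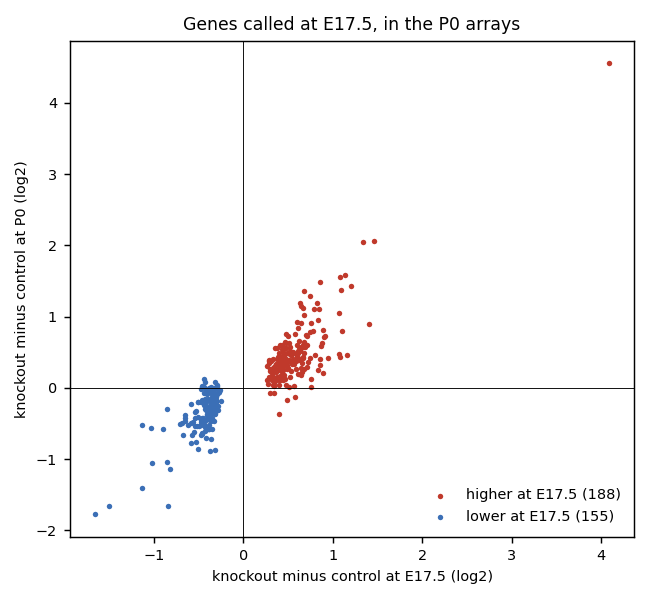
The 343 genes called at E17.5, by their knockout minus control difference at E17.5 (x, log2) and in the separate P0 arrays (y, log2), red for higher and blue for lower at E17.5. Of the higher genes 183 and of the lower genes 145 keep their sign at P0.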

How the data were processed

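The deposited table held log2 values for 45101 probe sets on 20 arrays; the labels do not state how the authors summarised and normalised them (not given in the sources used here), and the range, 1.72 to 15.0, shows the log2 scale. E17.5 array medians were 5.05 to 5.25. Probe sets with 1 gene in the platform annotation (34945) gave 18193 genes, with symbols updated by Entrez identifier from RefSeq. The probe set with the highest mean over 20 arrays stood for a gene, and it had to exceed the array median in at least 5 arrays (11859 genes). The 10 arrays were fitted alone with limma 3.58.1 (lmFit, eBayes) in R 4.3.3, with Benjamini-Hochberg adjustment over all genes. Single measures had two-sided exact permutation tests. The number of arrays limits the precision. On simulated data for this comparison (11859 genes, 200 changed) the fit recovered 65.67%, 91.04% and 98.48% of changes of 0.5, 1 and 2. It gave 12 false calls among 182. Whether these rates hold for the measured arrays was not tested. There the first principal component carried 47.8% of the variance, and leaving out 1 array gave 49 to 1129 called genes. The text names the 12 largest non-overlapping rises and falls or some of these, up to 3 called members a list and direction, and 8 genes of largest knockout spread; others are marked. The members, lists and tests were chosen with earlier results of these data known, and the P0 fit, the probe set comparison and the count of calls kept in all fits were added after the E17.5 values were seen. Replicate numbers are unique, so nothing pairs the samples. Genes that reveal sex were left out. Alternatives covered normalisation, filter, probe set, samples, variance model, a retina covariate and each array left out.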

Additional observations from a re-analysis of the deposited data

Results flagged for a closer look

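Within groups of 5 arrays, a sample was singled out where its gap to the nearest other array exceeded 0.71 of the group's range (Dixon's test). Chance gives about 1 in 20 groups, and 14 of 202 (6.93%) were singled out, so single cases carry little weight.

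Among knockout arrays, array 27 stood apart for Mt1 (6.45; others 10.43 to 10.91), Igfbp5 (10.62; others 9.24 to 9.53) and Slc38a4 (8.01; others 8.33 to 8.42), each time toward the controls. Array 28 stood apart for E2f3 (8.02; others 8.4 to 8.54), Slc1a4 (7.27; others 7.62 to 7.76), the 5′ minus 3′ difference of the actin control probe sets (-1.01; others -0.78 to -0.71) and the mean of the endothelial and pericyte markers (8.55; others 6.67 to 7.14). Array 26 stood apart for Galc (3.16; others 7.06 to 8.53).

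Among controls, array 10 stood apart for Bmf (6.4; others 6.81 to 6.87), Ddias (4.64; others 5.19 to 5.36) and the muscle markers (6.03; others 5.81 to 5.87). Array 11 did so for Derl1 (10.17; others 10.28 to 10.32), array 12 for Pttg1 (10.29; others 8.52 to 8.88) and array 15 for Rnf152 (7.03; others 6.64 to 6.7). No cause was tested for any of these.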

How the results depend on the processing

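Against 343 genes (188 higher, 155 lower), quantile normalisation gave 549 (346 lower), median centring 197 (48 lower), all 20 arrays 1541 (657 higher, 884 lower), array weights 3681 (1761 higher, 1920 lower) and the retina covariate 94 (74 higher, 20 lower). Weights with 1 variance per group left 84 lower. Leaving out 1 array gave 49 to 1129 called genes, 43 to 521 higher and 6 to 608 lower. The filters, the other rules for the probe set and the trend and robust fit stayed within 1.5 times of the total count. The ratio of the knockout to the control spread kept its direction and its exact p in every alternative tried (1.81 to 1.99 by distance, 3.92 by 1 minus the correlation). That p takes no account of the dependence between the distances of a group. Of 78 called genes among the 89 checked one by one, 12 kept their call in every alternative; 29 lost it with the mean of their probe sets, where Acss2 turned to -0.04 and Serinc3 (0.21), Srsf10 (0.20), Bnip2 (0.09), Cycs (0.12), Derl1 (0.00) and Prox1 (0.04) were far smaller than with the probe set used. The uncalled Galc passed in all 20 arrays, with group weights and without knockout 26, and Fgf15 and Slc45a4 passed with array weights. The cause of these changes was not tested. No paired analysis was possible because the replicate numbers are unique to each sample. With 5 arrays a group, changes of 0.5 were recovered less often than larger ones on simulated data, so genes that did not pass cannot be taken as unchanged.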
